A study of Mus musculus with 36 samples.

Results

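The mouse Hox genes were followed in brown pre-adipocytes that were made to differentiate. A gene was taken as a member when GENCODE M21 lists it as protein-coding under a symbol made of Hoxa, Hoxb, Hoxc or Hoxd and a number, which gave 39 of the 55536 genes in each count table. RNA was sequenced from 2 monoclonal Rxra-/- cell lines, clone 48 and clone 66, which had been made with Cas9 and so carried no endogenous RXRα, also in the control groups. Into each clone a retrovirus (pBabe Hygro) carried either wild type Rxra (WT) or Rxra with serine 22 replaced by alanine (SA), a form that cannot be phosphorylated at that residue. Cells were collected at days 0, 2 and 6 of differentiation, and insulin and T3 were given throughout, with dexamethasone, IBMX and indomethacin for the first 2 days. Each of the 12 groups (clone by genotype by day) had 3 replicates, 36 libraries in all. Each genotype therefore rests on 2 clones, and each clone was sequenced in a library pool of its own, so clone and pool cannot be told apart. The labels do not say whether replicates were separate cultures, the deposited design text calls them technical, and the study's methods speak of independent repeats of the cultures, so p-values measure the spread between these libraries.

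Hox genes encode homeodomain transcription factors that are laid out in 4 clusters, and the order of the genes along a cluster follows the position along the body axis at which they are used. Genes of low number, such as Hoxa2, are used towards the head, and genes of high number, such as Hoxc13, towards the tail and in the limbs. Cells of mesenchymal origin keep part of this pattern in culture as a memory of where in the body they came from, and Polycomb proteins hold the unused part of the clusters silent. HOX proteins bind DNA together with cofactors of the TALE family, the PBX, MEIS and PKNOX proteins. Retinoic acid receptors, which pair with RXR proteins, are known regulators of Hox genes in the embryo.

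On the GRCm38 assembly the Hoxa cluster had 11 members on chromosome 6 (52155590 to 52260880) and the Hoxb cluster 10 on chromosome 11 (96194316 to 96368256). The Hoxc cluster had 9 members on chromosome 15 (102921103 to 103036852) and the Hoxd cluster 9 on chromosome 2 (74668310 to 74765142). Total counts per library lay between 11351078 and 24349263. Rxra, the targeted gene, does not tell the genotypes apart by level, because both carry it back: its mean at day 0 was 163 ± 45.6 CPM in WT and 154 ± 37.3 CPM in SA (SD, n = 6), where CPM is a count scaled to a common library size. The adipocyte markers rose in 6 of 6 genes at day 2 and day 6, and Fabp4, a fatty acid carrier, went from a mean of 49.5 to 3832 CPM in clone 48. Of 8 brown adipocyte markers 5 were tested, of which 4 rose at day 2 and 5 at day 6. Ucp1, the defining gene of brown adipocytes, stayed at or under a mean of 0.205 CPM on every day in both clones. Ebf2, a brown fat regulator, was at 25.7 CPM in clone 48 and 0.272 CPM in clone 66 at day 0. Of 5 pre-adipocyte markers 4 were tested and fell at both days. Among all genes tested, 36.9% rose and 35.9% fell at day 2, and 34% rose and 33.3% fell at day 6, each against day 0. The 6 muscle markers summed to 0.250 to 4.55 CPM at days 0 and 2 and to 14.4 to 30.4 CPM at day 6, nearly all of it Des, a muscle intermediate filament gene, while the 5 macrophage and leukocyte markers summed to 2.83 to 11.6 CPM and the 4 endothelial markers to at most 0.996 CPM in any library. The part of these cells in the Hox changes was not tested.

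Promoter sequences show what stands before genes that behaved differently here, and 4 were chosen: Hoxa2, which fell, Hoxb4, which rose, Hoxa9, which appeared at day 6, and Hoxd4, of the silent cluster. They are the 250 bases before a RefSeq transcription start on GRCm38.p6, each written in the direction of its gene, and none of the 4 overlaps an exon of the annotation used for counting. Capitals mark matches to 3 of the searched motifs, on either strand: AGGTCA, the half-site of nuclear receptors such as RXRα, TGATTNAT, bound by PBX and HOX proteins together, and TATAAA, the TATA box. The Hoxa2 window is chr6:52164832-52165081 on the minus strand, the Hoxa9 window chr6:52227371-52227620 on the minus strand, the Hoxb4 window chr11:96318017-96318266 on the plus strand and the Hoxd4 window chr2:74721728-74721977 on the plus strand. Those of Hoxa9 and Hoxd4 lie inside the gene as GENCODE M21 draws it, before an inner start.
Hoxa2: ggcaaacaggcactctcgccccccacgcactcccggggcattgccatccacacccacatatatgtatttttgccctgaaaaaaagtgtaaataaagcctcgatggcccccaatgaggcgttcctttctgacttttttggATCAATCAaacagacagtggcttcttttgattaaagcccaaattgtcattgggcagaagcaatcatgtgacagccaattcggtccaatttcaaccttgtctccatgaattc
Hoxa9: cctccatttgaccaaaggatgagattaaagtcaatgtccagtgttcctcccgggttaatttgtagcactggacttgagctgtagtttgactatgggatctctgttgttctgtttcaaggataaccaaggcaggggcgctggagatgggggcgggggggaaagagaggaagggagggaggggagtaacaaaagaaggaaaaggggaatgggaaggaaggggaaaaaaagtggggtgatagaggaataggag
Hoxb4: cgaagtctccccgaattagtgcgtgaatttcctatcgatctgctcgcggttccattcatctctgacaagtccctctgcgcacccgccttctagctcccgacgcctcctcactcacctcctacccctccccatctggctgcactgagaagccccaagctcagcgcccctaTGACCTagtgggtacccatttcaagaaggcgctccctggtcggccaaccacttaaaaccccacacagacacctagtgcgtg
Hoxd4: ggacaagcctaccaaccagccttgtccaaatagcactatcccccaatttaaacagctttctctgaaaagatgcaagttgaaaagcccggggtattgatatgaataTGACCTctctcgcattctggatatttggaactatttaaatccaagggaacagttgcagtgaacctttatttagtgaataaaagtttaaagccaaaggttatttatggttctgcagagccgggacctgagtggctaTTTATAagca

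The reference table held 24 such windows for 22 members among 32851 promoters, and 10 of the 22 were members detected here. The half-site AGGTCA was present in 6 of the 24 windows, of Hoxb4, Hoxc4, Hoxd3, Hoxd4, Hoxd8 and Hoxd10, and in 14% of all promoters. With the 50 bases after the start included, as in the first scan made, it was in 7 of 24, with Hoxa5 added, and in 16.3% of all. Of the 24 windows 10 overlap an annotated exon, those of Hoxc4 and Hoxd3 among them. The Hoxc4 window (chr15:103034145-103034394) lies inside the gene as GENCODE M21 draws it, before an inner start. The 6 genes with the motif in the 250 bases rose (Hoxb4), fell (Hoxc4) or had no reads (the Hoxd genes). Direct repeats, with AGGTCA read again in the same direction after 5 bases or after 1 base, overlap this motif by their make-up and were in 0 of the 24 windows and in 0.00913% and 0.0335% of all promoters. TGATTNAT was in the windows of Hoxa2 and Hoxd11 and in 2.82% of all promoters, and TATAAA in those of Hoxa10, Hoxb8, Hoxd4 and Hoxd13 and in 12.4% of all. These are matches of letters in a short window, and no binding was measured.

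The Hoxd cluster was silent. All 9 Hoxd genes had 0 counts in all 36 libraries, out of 660923583 counts in total, which allows each of them at most 0.00454 CPM over all libraries, or 0.123 to 0.264 CPM in a single library (3 counts, counting error only). Genes on both sides of the cluster were read, since Lnpk had 894 to 2588 counts and Mtx2 911 to 2785 counts per library. Evx2, a homeobox gene at the end of the Hoxd cluster beside Hoxd13, had 0 counts as well. For Hoxd3 and Hoxd4 the counting could have hidden reads, because 62.8% and 52.3% of their exon bases are shared with other genes and reads falling in 2 genes were left out. Hoxd1, Hoxd8, Hoxd9, Hoxd12 and Hoxd13, whose exons are shared with no other gene, were likewise at 0.

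Silence also covered the tail end of the Hoxa cluster. Hoxa11 and Hoxa13, which pattern the limb and the urogenital tract, had 0 counts in all 36 libraries, as did the neighbouring RNA gene Hottip and the homeobox gene Evx1. On the far side of the cluster, Skap2 had 1013 to 2221 counts. Hoxa10 had 0 counts at days 0 and 2, and at day 6 its counts were 1, 1, 2, 4, 1 and 3 in clone 48 and 1, 1, 0, 1, 1 and 0 in clone 66, so it was near the limit of detection. Hoxb1, a hindbrain gene, had 2 counts in the whole series. Against this, all 9 Hoxc genes had reads, Hoxc13 at the tail end included, so the clusters differed in how far towards their tail end they were read: at day 0 to Hoxa7 in Hoxa and to Hoxb9 in Hoxb, with Hoxa9 and Hoxb13 near 0, and to Hoxc13 in Hoxc. In all, 27 members were detected, with more than 3 counts in some library, and 26 of these passed the filter on low counts and were tested. The filter asks for reads in as few libraries as the smallest group holds, so a member absent from most groups, such as Hoxa9, passed through the group where it was high.

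**Figure D1:**
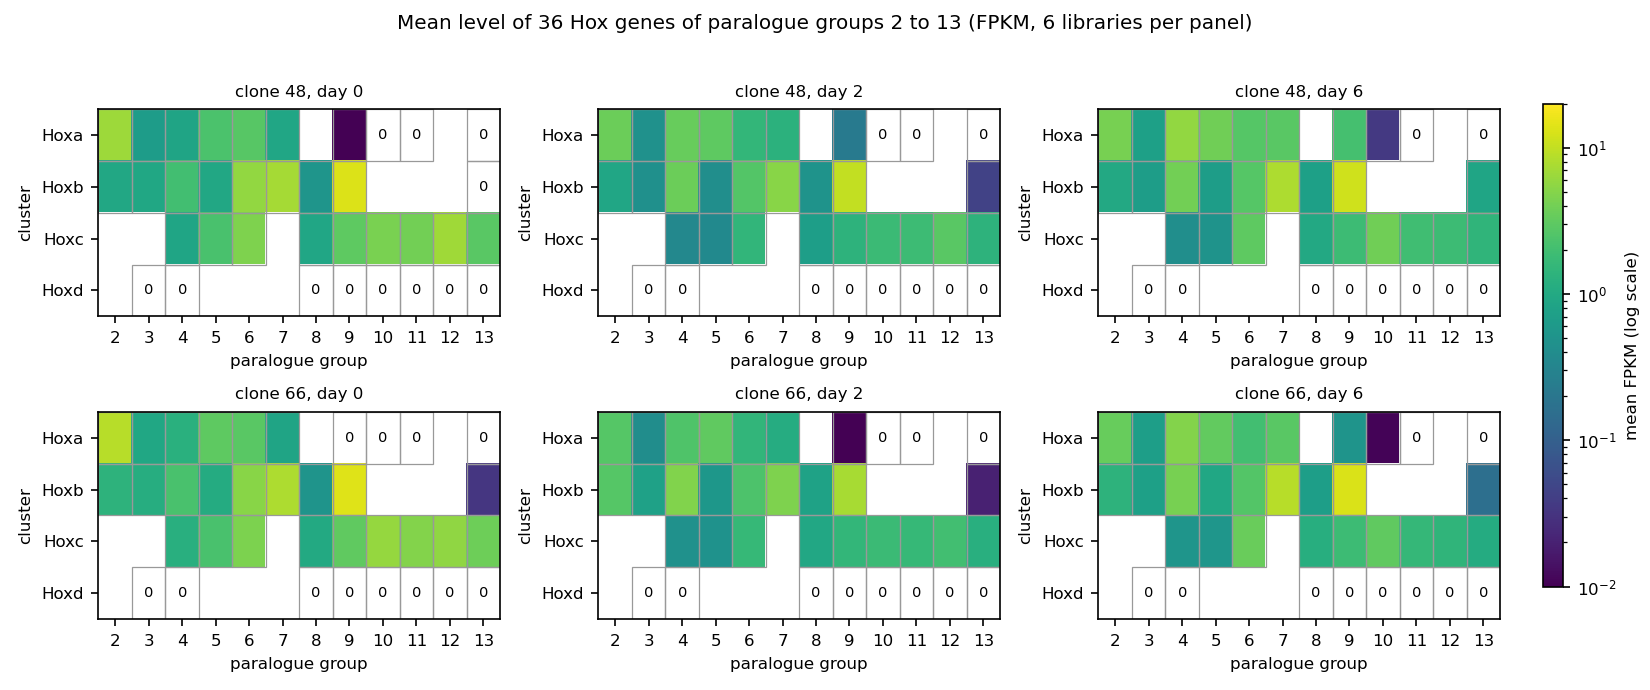
Mean level of the 36 Hox genes of paralogue groups 2 to 13 by cluster (rows) and paralogue group (columns) in each clone and day, as FPKM on a log colour scale, over the 6 libraries (3 WT, 3 SA) of each panel; a box with 0 is a gene without a count, and no box means that the cluster has no such gene. The Hoxd row is at 0 in every panel, and the boxes of Hoxa9 and Hoxb13 fill by day 6.

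Levels were compared between genes as FPKM, which is CPM per kilobase of exon, and a member was called expressed where its mean over the 6 libraries of a clone and day was at least 1 FPKM. In clone 48, 14, 15 and 17 members were expressed at days 0, 2 and 6, and in clone 66 20, 16 and 17. The members expressed in clone 66 and not in clone 48 at day 0 were Hoxa4, Hoxb2, Hoxb3, Hoxb5, Hoxc4 and Hoxc8, all between 0.851 and 0.955 FPKM in mean in clone 48 and between 1.02 and 1.35 in clone 66, and with a threshold of 0.5 FPKM clone 48 had 23 expressed members at day 0. Of these, Hoxb3, Hoxb2 and Hoxa4 share 52.9%, 27.3% and 16% of their exon bases with other genes, where reads were left out, so their FPKM is a low estimate. Per kilobase of exon not shared with another gene, 18 members were expressed in clone 48 and 22 in clone 66 at day 0. Expressed in both clones on all 3 days were Hoxa2, Hoxa5, Hoxa6, Hoxb4, Hoxb6, Hoxb7, Hoxb9, Hoxc6 and Hoxc9 to Hoxc13, 13 genes.

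Hoxb9, a gene of the thoracic region of the body axis, had the highest level on each day. At day 0 its mean was 13.6 ± 1.32 FPKM over 12 libraries (SD), and its lowest library, at 11.6 FPKM, lay above the highest library of the second gene, Hoxa2, at 10.1 FPKM. Next in mean FPKM at day 0 came Hoxa2 (7.75), Hoxb7 (7.42), Hoxc12 (6.22), Hoxb6 (5.48) and Hoxc10 (5.22), and each of these overlapped its neighbour in the order. By day 6 the order was Hoxb9 (12.3 FPKM), Hoxb7 (8.36), Hoxa4 (5.32), Hoxb4 (4.05) and Hoxa2 (3.81), all overlapping with the next. Hoxa4 was the sixteenth gene at day 0, at 1.05 FPKM, and Hoxc12 fell from the fourth place to the fourteenth, at 1.63 FPKM. The Hoxc genes together summed to 29.6 ± 4.82 FPKM in clone 48 and 32.5 ± 5.73 FPKM in clone 66 at day 0 (SD, n = 6). At day 2 these sums were 12.1 ± 2.60 and 11.7 ± 1.38 FPKM, and at day 6 15.8 ± 5.30 and 14.9 ± 3.79 FPKM, with every day 0 library above every day 2 library.

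Most tested members changed with time, as most genes did. Between days 0 and 2, averaged over genotypes and clones, 21 of the 26 tested members passed an adjusted p-value of 0.05 (edgeR quasi-likelihood test, Benjamini-Hochberg over 17589 genes), and so did 72.8% of all genes, so a changed Hox gene was not unusual in itself. The direction was less even: 5 members rose and 16 fell, where 36.9% of all genes rose and 35.9% fell, and the median log2 fold change was -0.81 over the members and 0.02 over all genes. Between days 0 and 6, 8 members rose and 11 fell, against 34% and 33.3% of all genes (67.4% called), with a median of -0.21. Between days 2 and 6, 14 members rose and 2 fell, against 31.1% and 29.7% of all genes (60.8% called), with a median of 0.35. The tested members include Hoxa9 and Hoxb13, which passed the filter through the groups where they are high, so their calls are not taken as support. Over the other 24 members the medians were -0.87 (day 2 against day 0), -0.32 (day 6 against day 0) and 0.29 (day 6 against day 2). Without TMM scaling, on library size alone, 3 members rose and 18 fell at day 2, while the median of all genes moved to -0.29. Bulk RNA does not tell fewer cells with a transcript from less transcript per cell.

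The fall was broadest in the Hoxc cluster, where 8 of 9 genes fell by day 2 and 0 rose. Hoxc5, a gene of the neck and upper trunk, fell most: in clone 48 its lowest, median and highest libraries had 5.35, 7.19 and 8.12 CPM at day 0 and 0.776, 1.08 and 1.45 CPM at day 2, and in clone 66 its mean went from 6.88 ± 0.863 to 1.49 ± 0.519 CPM (SD, n = 6). No library of day 2 reached any library of day 0. The fitted log2 fold change was -2.39 ± 0.14 (SE, adjusted p = 9.57e-17) at day 2 and -2.13 ± 0.14 at day 6, so it had not come back. Hoxc11, used in the hindlimb and lumbar region, fell from means of 8.09 ± 1.15 and 9.88 ± 0.861 CPM in clones 48 and 66 to 3.68 ± 0.405 and 3.30 ± 0.629 CPM at day 2, again with no overlap (log2 fold change -1.37 ± 0.10, SE). Hoxc12 fell at each step, by 1.36 at day 2 and by a further 0.58 from day 2 to day 6 on the log2 scale, and was 1 of the 2 members that fell in the second interval.

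Hoxc4, Hoxc6, Hoxc9, Hoxc10 and Hoxc13 fell by 1.08 to 1.56 on the log2 scale at day 2, and their later course differed. Hoxc6, Hoxc9 and Hoxc10 rose again by 1.06 ± 0.20, 0.32 ± 0.09 and 0.99 ± 0.26 (SE) between days 2 and 6, and stayed below day 0 in the fit over both clones. For Hoxc6 and Hoxc10 the day 6 libraries overlapped those of day 0 in both clones. In clone 48 Hoxc10 had 5.18 to 11.3 CPM at day 0 and 3.42 to 13.2 CPM at day 6. Within clone 48, 5 of the 9 Hoxc genes were called for day 6 against day 2, 4 up and 1 down. Within clone 66 only 1 of the 9 was called between days 2 and 6, and it rose. Hoxc4 and Hoxc13 did not pass the test in that interval, and were 1.12 ± 0.18 and 1.42 ± 0.26 below day 0 at day 6. Hoxc8, a thoracic gene that is used as a mark of positional origin in fat cells, was the cluster's exception at day 2, where its log2 fold change was -0.21 ± 0.11 (SE, adjusted p = 0.0749), and passed the test with RLE size factors, on library size alone, with DESeq2, with a filter of 1 CPM, and without clone 66 replicate 1 or 3. The genes Hoxc6, Hoxc10 and Hoxc13 varied widely between replicates. Hoxc13 in clone 66 at day 0 had 5.17, 6.32 and 16.1 CPM in WT and 4.64, 11.8 and 11.8 CPM in SA, with replicate 1 lowest in both genotypes. For Hoxc6 and Hoxc10 the day 6 against day 0 calls were lost without clone 48 replicate 1 or 2 or clone 66 replicate 2, for Hoxc10 also without clone 66 replicate 3, and for both when same-numbered libraries were summed.

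**Figure D2:**
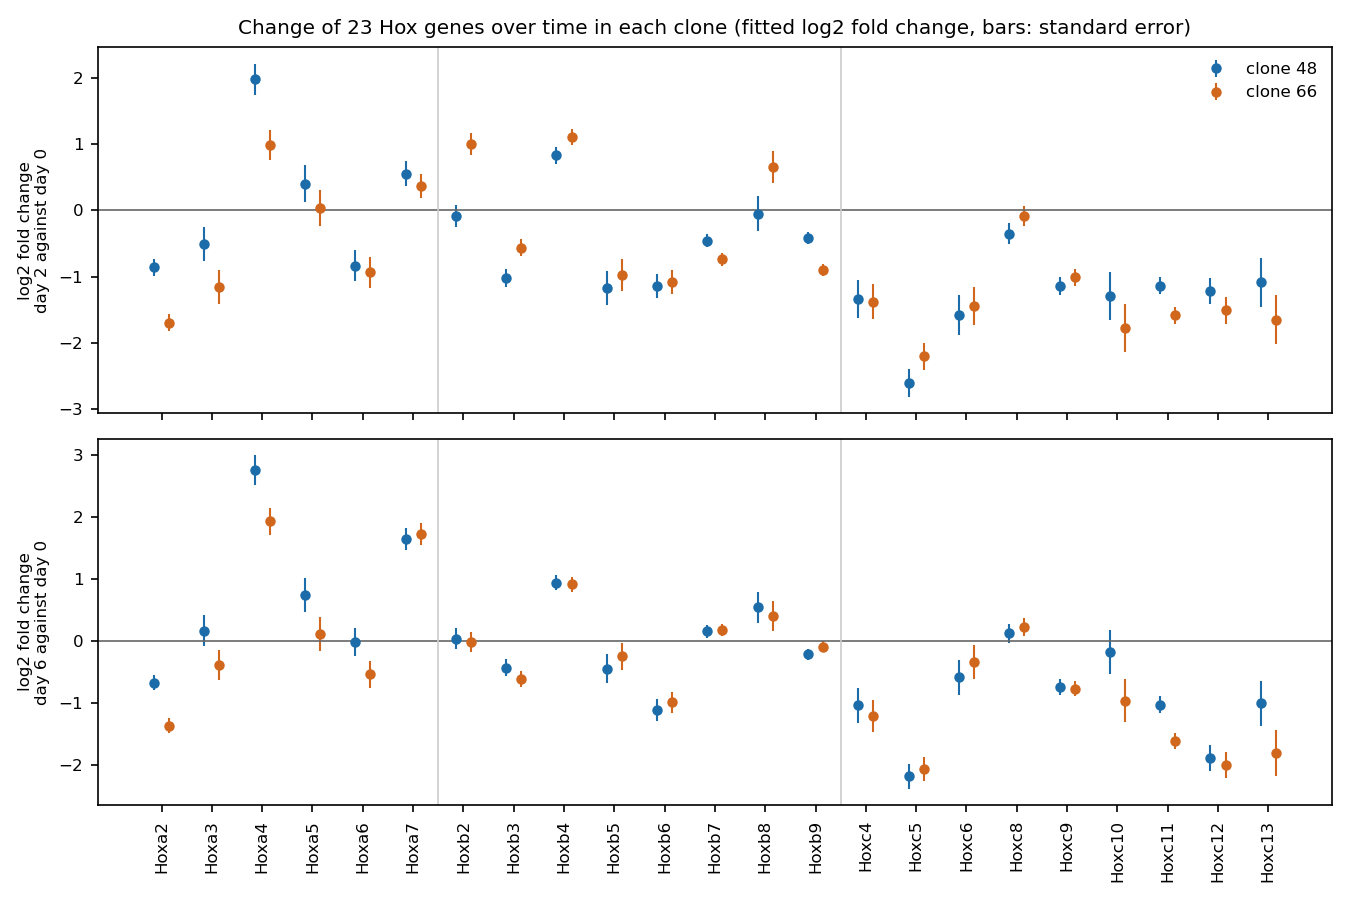
Fitted log2 fold change of 23 Hox genes of paralogue groups 2 to 13 at day 2 (upper panel) and day 6 (lower panel) against day 0 in clone 48 and clone 66, points with standard errors, with grey lines between clusters; Hoxa9 and Hoxb13, which are near 0 counts in whole groups, are left out. In the Hoxc cluster the points lie below 0 at day 2 in both clones, and Hoxa4 and Hoxa7 lie above 0 on both days.

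In the Hoxb cluster 2 of 9 tested genes rose and 5 fell by day 2. Hoxb4, whose protein is known for its part in blood stem cells, rose from a mean of 5.21 ± 0.556 to 9.27 ± 1.28 CPM in clone 48 and from 5.71 ± 0.418 to 12.3 ± 1.05 CPM in clone 66 (SD, n = 6). No day 0 library reached a day 2 library (log2 fold change 0.97 ± 0.09, SE, adjusted p = 4.13e-12), and the level was kept at day 6 (0.93 ± 0.09 against day 0). Hoxb6 fell from means of 11.5 ± 1.77 to 5.19 ± 0.666 CPM in clone 48 and from medians of 10.1 to 4.90 CPM in clone 66, and stayed low at day 6, at 1.06 ± 0.12 (SE) below day 0. Hoxb9, the most abundant member, fell by 0.65 ± 0.08 at day 2 and rose by 0.50 ± 0.08 from day 2 to day 6. Hoxb5 and Hoxb7 also fell at day 2, by 1.08 ± 0.18 and 0.59 ± 0.08, and rose afterwards by 0.72 ± 0.18 and 0.76 ± 0.08. The small rise of Hoxb7 between days 0 and 6 (0.17 ± 0.08, adjusted p = 0.0459) became -0.06 on library size alone and was not called under most other settings.

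In the Hoxa cluster 3 of 8 tested genes rose and 3 fell by day 2. The 8 include Hoxa9, which passed the filter through the groups where it is high, so its call is not taken as support. Hoxa4, which patterns the neck vertebrae, had 1.03 to 1.87 CPM at day 0 in clone 48 (mean 1.36), and a lowest, median and highest CPM of 3.39, 5.44 and 7.37 at day 2 and of 6.27, 8.53 and 13.6 at day 6. In clone 66 its medians were 1.74, 4.03 and 7.57 CPM. The log2 fold change was 1.44 ± 0.18 (SE) at day 2 and 2.31 ± 0.18 at day 6 (adjusted p = 1.71e-13), with no overlap between days 0 and 6. Hoxa7 rose from 2.62 ± 0.619 to 8.20 ± 1.29 CPM in clone 48 and from 2.44 ± 0.443 to 8.12 ± 1.32 CPM in clone 66 between days 0 and 6 (SD, n = 6), a log2 fold change of 1.69 ± 0.12 (SE). Its smaller rise at day 2 was lost on library size alone. Hoxa2, the gene of the second branchial arch and the most abundant of the cluster at day 0, went the other way, by -1.29 ± 0.12 at day 2 and -1.03 ± 0.12 at day 6. Hoxa5, a regulator that has been linked to fat cell differentiation, did not pass the test in any of the 3 intervals, at 0.20 for day 2 against day 0, 0.42 for day 6 against day 0 and 0.21 for day 6 against day 2 on the log2 scale.

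Hoxa9 appeared during differentiation. In clone 48 its counts were 0, 0 and 0 in WT and 1, 0 and 1 in SA at day 0, then 20, 16 and 18 in WT and 23, 27 and 14 in SA at day 2, then 228, 219 and 176 in WT and 229, 201 and 162 in SA at day 6. In clone 66 all 6 libraries were at 0 at day 0, day 2 had 0, 0 and 1 in WT and 0, 1 and 2 in SA, and day 6 had 38, 35 and 46 in WT and 86, 62 and 62 in SA. Within each clone every day 6 library was thus above every library of the earlier days, while the lowest day 6 library of clone 66 (1.90 CPM) lay just under the highest day 2 library of clone 48 (1.95 CPM). In clone 48 the summed level at day 6 was 9.35 times that of day 2 (95% exact counting interval 7.73 to 11.4). In clone 66 it was at least 127.5-fold higher at day 6 than at day 0, where the 6 libraries were set at a floor of 3 counts together. Its mean at day 6 was 2.13 FPKM in clone 48 and 0.506 FPKM in clone 66. Hoxa9, best known for its part in blood progenitors and leukaemia, shares 1.5% of its exon bases with another gene.

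Hoxb13, a gene of the tail end of the body and of the prostate, behaved in part alike. In clone 48 it had 0 counts in all 6 libraries at day 0, 1, 1 and 1 in WT and 2, 3 and 1 in SA at day 2, and 22, 48 and 37 in WT and 30, 32 and 29 in SA at day 6, which is at least 69.2-fold above the floor of 3 counts over the group. In clone 66 its counts were 2, 1 and 3 in WT and 1, 2 and 1 in SA at day 0, 0, 1 and 0 in WT and 0, 0 and 4 in SA at day 2, and 7, 5 and 5 in WT and 8, 4 and 12 in SA at day 6, a ratio of day 6 to day 0 of 4.77 (95% exact interval 2.35 to 10.7). Its level at day 6 stayed under 1 FPKM in mean in both clones, at 0.872 and 0.158 FPKM.

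**Figure D3:**
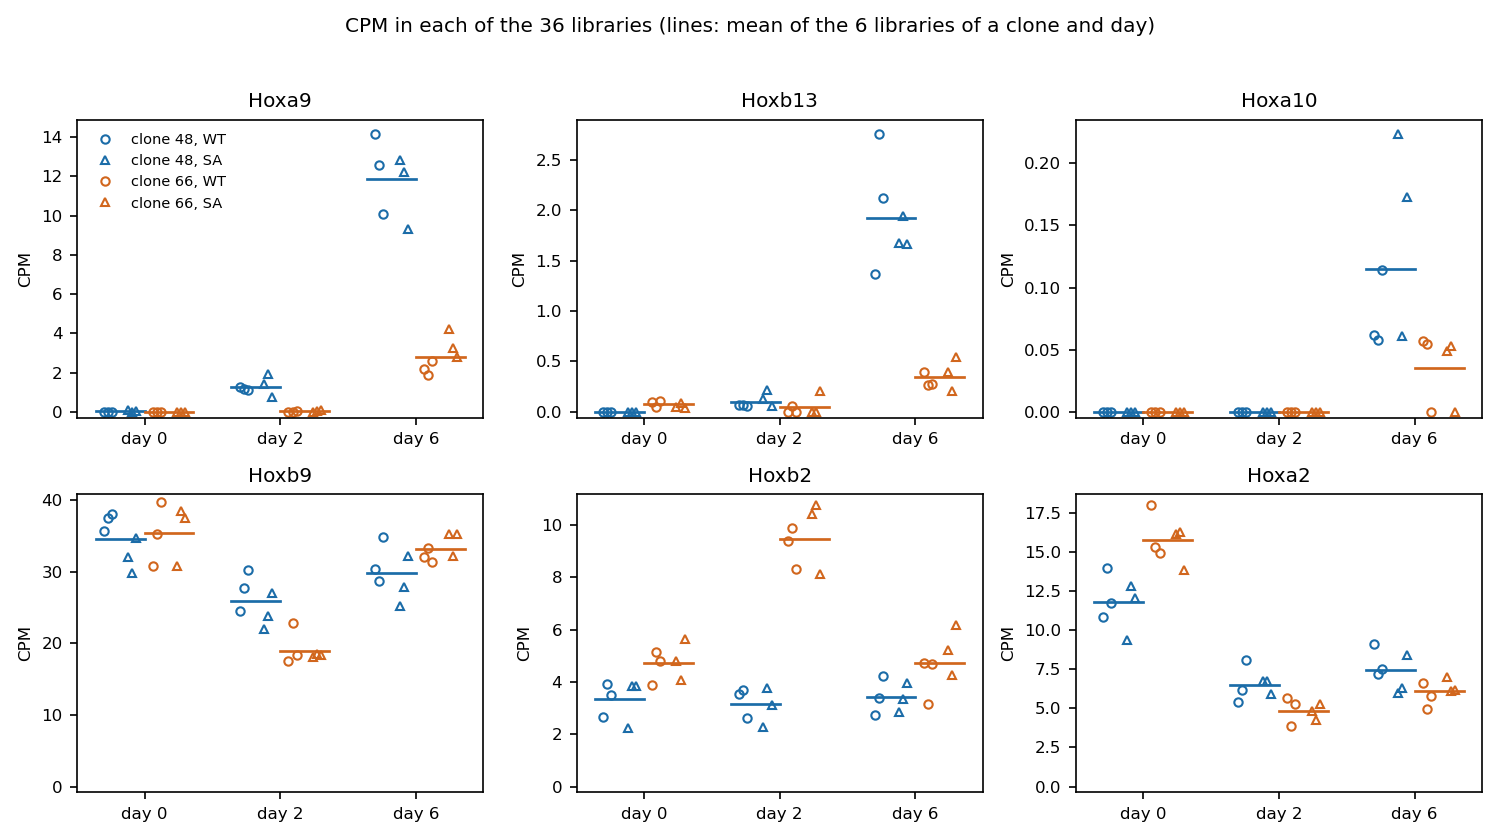
CPM of 6 Hox genes in each of the 36 libraries by day, with circles for WT and triangles for SA, blue for clone 48 and orange for clone 66, and lines at the mean of the 6 libraries of a clone and day; the genes were picked after their values had been seen. Hoxa9 reaches 9.32 to 14.2 CPM in clone 48 and 1.90 to 4.22 CPM in clone 66 at day 6, and Hoxb2 stands higher in clone 66 than in clone 48 at day 2.

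For most members the fitted change had the same sign in the 2 clones. The fitted day 2 against day 0 changes of the 26 tested members had the same sign in both clones for 22 members, those of day 6 against day 0 for 24, and those of day 6 against day 2 for 20. No share of all genes stands beside these counts, and they include Hoxa9 and Hoxb13. The signs of these 2 rest in part on groups near 0: Hoxb13 in clone 66 had 10 counts at day 0 and 5 at day 2. Within clone 48, 21 members were called at day 2 against 64.6% of all genes, and within clone 66 22 against 60.8%. For day 6 against day 0, 17 were called in clone 48 (55.4% of all genes) and 17 in clone 66 (56.5%), and for day 6 against day 2, 15 (50%) and 12 (49.3%). The clones were then compared on each day (clone 66 against clone 48). At day 0, 4 members differed, all higher in clone 66, against 22.7% of all genes called, 11.7% higher and 11% lower. At day 2, 9 differed, 5 higher and 4 lower, against 28.6% of all genes, 13.7% higher and 14.9% lower. At day 6, 4 differed, 1 higher and 3 lower, against 25%, 13.5% higher and 11.5% lower. Of 26 members, 4 is a smaller share than that of all genes, at days 0 and 6, and 9 at day 2 a larger one. Whether these shares differ from those of all genes was not tested. Leaving out the near-silent Hoxa9 and Hoxb13, the median differences of the other 24 members were 0.20, -0.02 and -0.04 at days 0, 2 and 6.

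The libraries behind this comparison are not all independent, since WT and SA libraries of the same replicate number deviated together. With each same-numbered pair summed to 1 library, only Hoxb13 was called at day 0, 5 members were called at day 2, among them Hoxa9, Hoxb2, Hoxb3 and Hoxb9, and Hoxa9 and Hoxb13 at day 6. Hoxa9 and Hoxb13 entered the fit through the groups where they are high, so their calls are not taken as support. With the replicate number as a block, 8 members were called at day 0, with Hoxa3, Hoxa4, Hoxb3 and Hoxc4 added. At day 0 the count also fell to 1 without clone 48 replicate 1 and to 2 without clone 66 replicate 3.

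Hoxa9 stood apart between the clones. At day 2 its level was 34.3 times higher in clone 48 (95% exact interval 13.1 to 128) and at day 6 4.15 times higher (3.67 to 4.70) with no overlap on either day. These ratios are given without a test, since the gene entered the fit through the groups where it is high. Hoxb13 at day 6 was 5.43 times higher in clone 48 (3.86 to 7.80), and at day 0 it had reads in clone 66 alone, 10 counts over 6 libraries against 0, too few for a ratio. Hoxb2, a hindbrain gene, stood out at day 2 in the other direction. Its lowest, median and highest libraries had 2.26, 3.33 and 3.76 CPM in clone 48 and 8.12, 9.63 and 10.7 CPM in clone 66, a log2 difference of 1.58 ± 0.17 (SE, adjusted p = 1.19e-08). At days 0 and 6 the difference was 0.50 ± 0.16 and 0.45 ± 0.17 with overlapping libraries, and both calls were lost when same-numbered libraries were summed, without the filter, and without clone 48 replicate 1 or clone 66 replicate 3. That of day 0 was also lost without the SA day 0 library 1 of clone 48, and that of day 6 with RLE size factors, on library size alone, and without clone 48 replicate 2 or clone 66 replicate 1.

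Hoxb3 at day 2 was 0.79 ± 0.14 higher in clone 66, and Hoxb9 0.45 ± 0.09 lower. Hoxa2, Hoxb4, Hoxb8 and Hoxc8 also passed the test at day 2, with differences of -0.42, 0.41, 0.69 and 0.43, and each of these 4 was lost when same-numbered libraries were summed and when some replicate numbers were left out: for Hoxa2 clone 48 replicate 3 or clone 66 replicate 2, for Hoxb4 clone 48 replicate 1 or clone 66 replicate 2, for Hoxb8 clone 48 replicate 2 or clone 66 replicate 2 or 3, and for Hoxc8 clone 48 replicate 1 or 2 or clone 66 replicate 1 or 3.

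**Figure D4:**
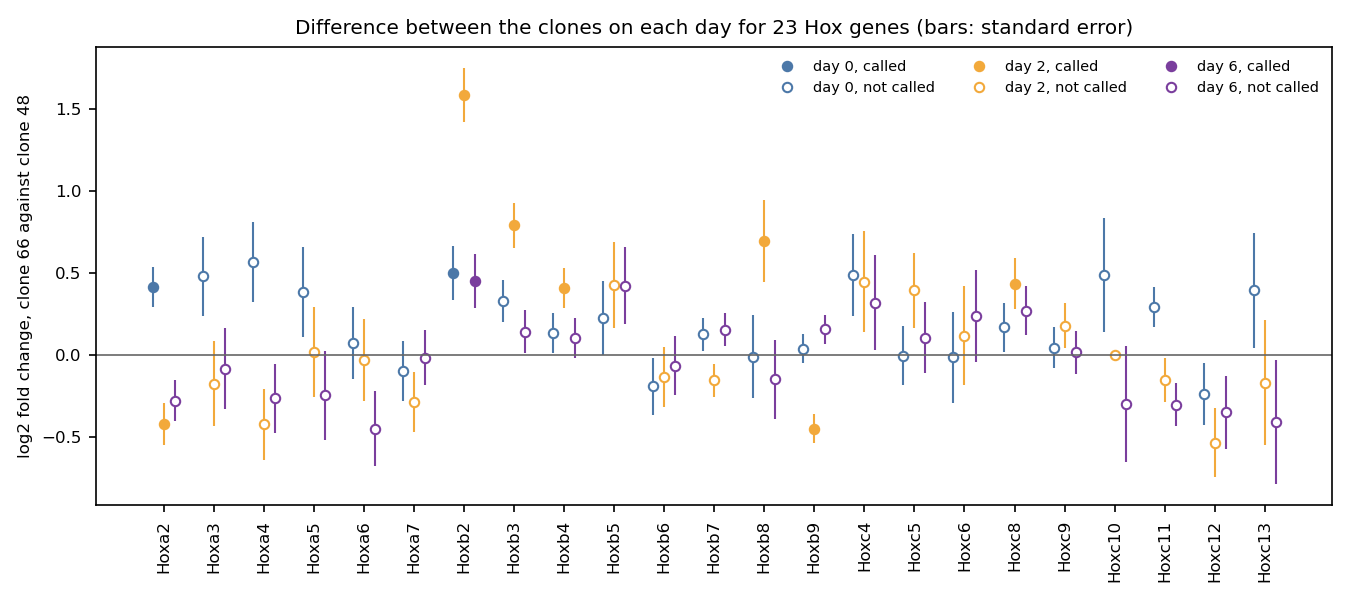
Fitted log2 difference of clone 66 against clone 48 at days 0, 2 and 6 for 23 Hox genes of paralogue groups 2 to 13, points with standard errors, filled where the adjusted p-value is under 0.05. Filled points sit among Hoxa2, Hoxb2 to Hoxb4, Hoxb8, Hoxb9 and Hoxc8, and the largest lies at 1.58 (Hoxb2, day 2).

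Whether the change over time itself differed between clones was tested as an interaction. At day 2 against day 0, 5 members differed, against 6.22% of all genes. Hoxb2 was at -0.08 ± 0.17 in clone 48, where it did not pass the test, and rose by 1.00 ± 0.16 in clone 66. Hoxa2 fell in both, by 0.86 ± 0.13 in clone 48 and by 1.70 ± 0.13 in clone 66, and Hoxb9 by 0.42 ± 0.09 and 0.91 ± 0.09. At day 6 against day 0, 3 members differed (3.62% of all genes), and at day 6 against day 2, 4 members (5.81%). With same-numbered libraries summed, 1 member was called in each of the 3 tests, Hoxb13 for day 6 against day 0 and Hoxa9 for day 6 against day 2. Hoxa9 and Hoxb13 entered the fit through the groups where they are high, so these calls are not taken as support.

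Parts of the exons of these genes are shared with other genes, on the opposite or on the same strand, and reads falling in shared parts were left out. Reads were counted without regard to strand, and the exons of Hoxb3 and Hoxb2 share 52.9% and 27.3% of their bases with Hoxb3os, an antisense RNA gene, so their values are uncertain. Hoxb3os was itself higher in clone 66 at days 0, 2 and 6, by 0.62 ± 0.17, 0.56 ± 0.16 and 0.49 ± 0.15 (SE), and rose by 1.28 ± 0.11 at day 2. Hotairm1, an antisense RNA gene of the Hoxa cluster, was 0.81 ± 0.17 lower in clone 66 at day 6. Its log2 fold change was -0.40 ± 0.18 (SE) at day 2 and 1.75 ± 0.17 at day 6, both against day 0. Gm53 of the Hoxb cluster and Hoxaas2 and 5730596B20Rik of the Hoxa cluster, the last listed as protein-coding, had higher mean counts than Hotairm1. At day 2 against day 0 they were at -1.27 ± 0.09, -1.52 ± 0.14 and -1.36 ± 0.13. Hoxa3, Hoxa7, Hoxa4 and Hoxa2 share 27.1%, 20.4%, 16% and 15%, and Hoxa9, Hoxb4, Hoxb9 and Hoxc8 to Hoxc13 at most 8.7%. The part of Hoxa2 is shared with Gm28308, a protein-coding gene of the same strand, as is some of that of Hoxa3. Hoxa9 shares with Mir196b and Hoxc10 with Hoxc5, also on the same strand. The part of the antisense RNAs in the members' changes was not tested. Of the 46 other genes listed within the clusters 15 passed the filter, and 2 rose and 8 fell at day 2, where 36.9% of all genes rose and 35.9% fell. Hotair, an RNA gene between Hoxc11 and Hoxc12 that is known for its work on the Hoxd cluster, fell with its neighbours, from 2.04 ± 0.413 to 0.321 ± 0.210 CPM in clone 48 (SD, n = 6) and by 2.66 ± 0.21 (SE) on the log2 scale over both clones.

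The genotypes were compared to ask whether the serine 22 exchange in Rxra moved any Hox gene, and none passed the test. At days 0, 2 and 6, 0 of the 26 tested members were called in SA against WT, against 0% of all genes, by edgeR and likewise by DESeq2. At an unadjusted p-value under 0.05 stood 0, 0 and 1 members and 166, 207 and 150 of all genes. The 1 member was Hoxc5 at day 6, with a mean of 1.35 ± 0.178 CPM in WT and 1.83 ± 0.575 CPM in SA (SD, n = 6), overlapping libraries and a log2 difference of 0.44 ± 0.21 (SE, adjusted p = 1). The most abundant member, Hoxb9, had 36.1 ± 3.05 and 33.9 ± 3.60 CPM in WT and SA at day 0, 23.5 ± 5.03 and 21.3 ± 3.66 CPM at day 2 and 31.7 ± 2.17 and 31.3 ± 4.04 CPM at day 6. Apart from Hoxa9 and Hoxb13, the members' differences ran from -0.47 ± 0.27 (Hoxb5, day 2) to the value of Hoxc5. A test of SA against WT inside each clone, which was chosen once the values were known, called 0 members and 0% of all genes on any day. At days 0, 2 and 6, 1, 0 and 0 members stood at an unadjusted p-value under 0.05 in clone 48, beside 383, 218 and 220 of all 17589 genes. In clone 66 these were 0, 0 and 4 members, beside 159, 218 and 194 of all genes. The test of a different genotype effect in the 2 clones also called 0. Under an unadjusted 0.05 it had 0, 0 and 1 members, beside 305, 242 and 222 of all genes. Because same-numbered WT and SA libraries deviated together, the comparison was also fitted with the replicate number as a block, and with a block within each day, and 0 members were called at each day in both. As a description, the median log2 difference over the members at days 0, 2 and 6 was -0.22, -0.067 and -0.168 in clone 48 and 0.02, -0.031 and 0.242 in clone 66, where the medians of all genes lay between -0.013 and -0.002. The summed Hox counts as a share of the library were lower in SA in 3 of 3 same-numbered pairs of clone 48 at day 0 and higher in 3 of 3 pairs of clone 66 at day 6, which was not tested.

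**Figure D5:**
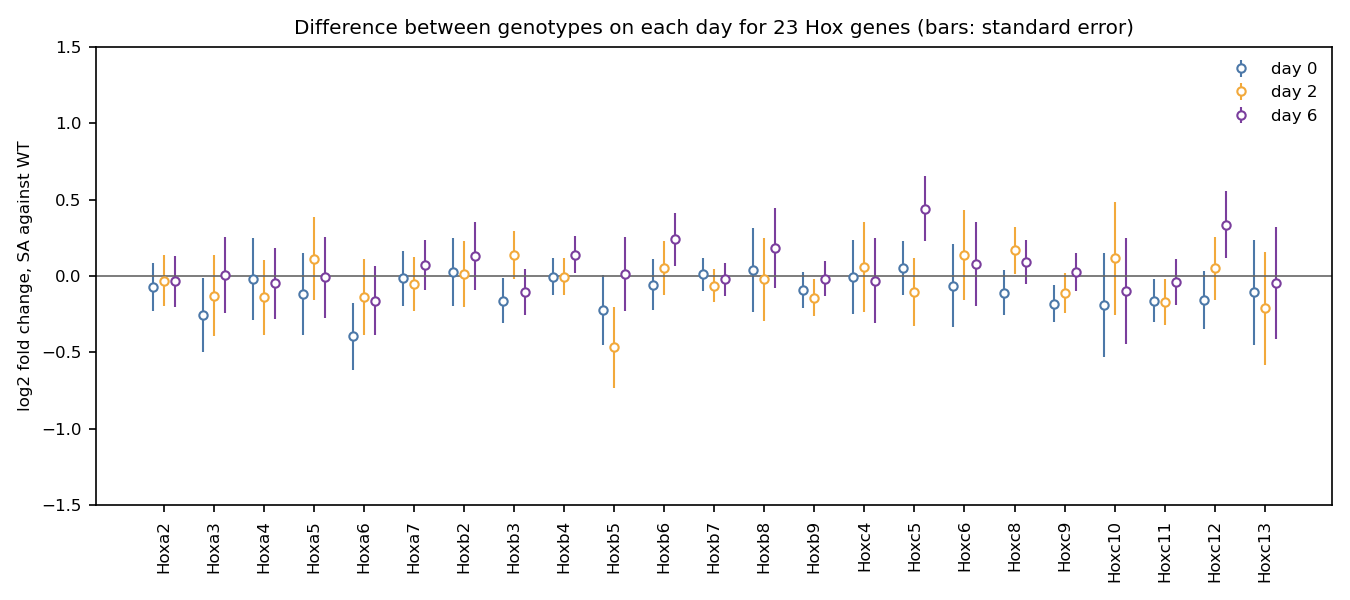
Fitted log2 difference of SA against WT at days 0, 2 and 6 for 23 Hox genes of paralogue groups 2 to 13, points with standard errors, open because none has an adjusted p-value under 0.05. The points lie between -0.47 and 0.44 around the line at 0.

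The cofactors and the chromatin regulators of the Hox genes all passed the filter on low counts. Their counts stand beside those of all genes, of which 36.9% rose and 35.9% fell at day 2 and 22.7%, 28.6% and 25% differed between the clones at days 0, 2 and 6. Of the 9 TALE genes 1 rose and 8 fell at day 2, with a median log2 fold change of -1.18, and the largest changes were those of Pknox2 (-1.97 ± 0.18, SE), Pbx3 (-1.66 ± 0.06) and Meis3 (-1.56 ± 0.12). At day 6 against day 0, 3 rose and 5 fell, with a median of -1.18, where 34% of all genes rose and 33.3% fell. Of 23 Polycomb genes 8 rose and 11 fell at day 2, and 3, 9 and 6 differed between the clones at days 0, 2 and 6. Cbx7, a Polycomb protein that reads methylated histone H3, fell by 2.97 ± 0.14 at day 2. Cbx7 was 1.21 ± 0.17 lower and Jarid2, a partner of PRC2, 0.89 ± 0.11 lower in clone 66 than in clone 48, at day 0 and day 2 respectively. Of the 11 Trithorax and H3K27 demethylase genes, which oppose Polycomb, 5 rose and 2 fell at day 2, and Kdm6b, an H3K27 demethylase, rose by 1.24 ± 0.14 by day 6.

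Other transcription factors that mark position were tested in 11 of 19 cases, the others having too few counts for the filter. At day 2, 2 rose and 6 fell, beside 36.9% and 35.9% of all genes. Prrx1, a limb bud gene, fell by 2.39 ± 0.08 (SE) and Pax3, of the dermomyotome, by 1.27 ± 0.11. Irx3 was at -0.57 ± 0.21 at day 2 and rose by 1.53 ± 0.20 between days 0 and 6. Shox2, a limb gene, was higher in clone 66 on each day, by 0.98 ± 0.09, 1.16 ± 0.10 and 0.75 ± 0.09 on the log2 scale. Other called differences of clone 66 against clone 48 were negative at day 0, for Irx5 (-0.74), Irx3 (-0.725) and Prrx1 (-0.26). At day 6 Prrx1 was at -0.39, and at day 2 Tbx15 was at 0.58.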

How the data were processed

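RNA of 36 libraries (2 clones, 2 genotypes, 3 days, 3 replicates) was analysed from raw counts per gene. According to the study's methods and the submitters' processing notes, the authors made total RNA libraries with a stranded kit, aligned read pairs with STAR 2.7.0d to GRCm38 and made the deposited counts with featureCounts 1.6.2 on GENCODE M21, without a strand setting and leaving out pairs assigned to several genes or places. Antisense and overlapping genes are therefore uncertain.

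From these counts, edgeR 4.0.16 (R 4.3.3) was run with filterByExpr, TMM scaling and its quasi-likelihood test in the form of earlier versions, over 17589 genes with Benjamini-Hochberg adjustment and a threshold of 0.05. Days and genotypes were tested with genotype by day and clone as terms, and clones, clone by day and changes within a clone with 1 coefficient per group. FPKM used the exon length and the scaled library size. Members with at most 3 counts in every library were called not detected. Ratios of genes near 0 were formed from summed counts with exact 95% intervals or a floor of 3 counts over the group, both covering counting error only.

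All 39 members entered the counts, and the values of a few single genes are not reported here. Up to 3 genes of each other list with the largest called change per contrast were named, with further contrasts of some of them. Genes lying within the clusters were named from the 3 with the highest mean counts of each cluster, and some of these were not named. The members, lists, motifs, plotted genes and genes given as ratios were chosen with earlier results of these data known. The promoter window was cut to the 250 bases before the start after a first scan with the 50 bases after it, because transcribed bases were not to be printed.

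Same-numbered WT and SA libraries of a clone and day deviated together from their group means. These deviations correlated with a mean of 0.71 (0.176 to 0.93, 18 pairs, 9381 genes), so the numbers pair these libraries. The mean for different numbers, -0.333, is no separate evidence, because the deviations of the replicates from their mean cancel out. Same-numbered libraries of the same clone and genotype on different days correlated with a mean of 0.389 (-0.325 to 0.882, 36 pairs). Libraries of different days are thus not all independent. The pairing comes from the replicate numbers in the sample labels. Alternatives were RLE size factors, library size alone, other filters, DESeq2 1.42.0, the newer edgeR test, a replicate block, summed pairs, no clone term and each replicate number left out. The scripts were tested on simulated data.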

Additional observations from a re-analysis of the deposited data

Results flagged for a closer look

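Among the members described here, the change over time differed between the clones for 6, by the interaction test of the difference itself (edgeR quasi-likelihood test, adjusted over all genes), given as clone 66 minus clone 48 on the log2 scale. For day 2 against day 0 the values were -0.84 for Hoxa2 (adjusted p = 0.00262), 1.09 for Hoxb2 (0.00292), -0.49 for Hoxb9 (0.0152) and -4.68 for Hoxb13 (0.022). For day 6 against day 0 they were -0.69 for Hoxa2 (adjusted p = 0.0198) and -5.99 for Hoxb13 (0.000942). For day 6 against day 2 they were 2.91 for Hoxa9 (adjusted p = 0.00103), -1.13 for Hoxb2 (0.0021), -0.65 for Hoxb3 (0.0385) and 0.60 for Hoxb9 (0.00253). The sizes for Hoxa9 and Hoxb13 come from groups near 0 counts and depend on the prior count of the fit. Over 6 libraries Hoxb13 had 0 counts at day 0 and 9 at day 2 in clone 48, and 10 and 5 in clone 66. Hoxa9 and Hoxb13 passed the filter through the groups where they are high, so their p-values and calls are not taken as support. With same-numbered WT and SA libraries, which deviated together, summed to 1 library, 8 of these 10 calls were lost, and those of Hoxb13 for day 6 against day 0 and Hoxa9 for day 6 against day 2 remained. The call of Hoxb3 was lost whenever a replicate number was left out.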

How the results depend on the processing

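Of 327 counts of members recomputed under an alternative, 304 stayed within 1.5 times the value given and 23 did not. Between the clones (clone 66 against clone 48) the count at day 0 was 1 without the filter, 8 with the replicate block and 1 with same-numbered libraries summed, that at day 2 was 5 when summed, and that at day 6 was 2 without the filter and 2 when summed. The clone by day counts were 1 in each interval when summed, 5 with the replicate block for day 6 against day 0 and 2 without the filter for day 6 against day 2. Within clone 48 the count for day 6 against day 2 was 9 when summed. With each replicate number left out in turn, clone counts ranged from 1 to 4, 6 to 9 and 3 to 4 at days 0, 2 and 6, and clone by day counts from 3 to 5, 1 to 3 and 2 to 4. The interaction for day 6 against day 0 fell to 1 without clone 48 replicate 1 or clone 66 replicate 1, that for day 2 against day 0 to 3 without clone 48 replicate 2 or 3, and that for day 6 against day 2 to 2 without clone 48 replicate 2. Counts over days ranged from 20 to 22, 15 to 21 and 16 to 18. At an FPKM threshold of 0.5, 23 members were expressed in clone 48 at day 0, and at a threshold of 2, 8 in clone 48 at day 2, 8 in clone 66 at day 2 and 10 in clone 66 at day 6. The replicate block lost no call in any comparison.

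Of 2891 single-gene values 2689 kept their call and direction, 201 lost the call and 1, Hoxb7 for day 6 against day 0, reversed to -0.056 on library size alone. Of the losses 117 came with a replicate number or library left out, 42 with pairs summed and 22 without the filter. On library size alone the median of all genes moved to -0.29 for day 2 and -0.23 for day 6 against day 0, and the share of called genes that were higher fell from 50.7% to 33.2% and from 50.5% to 34.7%. Hoxb8 at day 6 lost its call on library size alone, when summed and without clone 48 replicate 2 or 3, and Hoxb2 at day 2 lost it on library size alone and without clone 66 replicate 1 or 2. The causes were not tested. Genes near 0 counts are limited by depth, and clone cannot be told apart from pool.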
